A study of Mus musculus with 18 samples.

Results

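The genes described here are the numbered zinc finger protein genes of mouse hepatocytes, taken as every gene whose symbol is Zfp followed by digits alone and selected on a mean CPM (the raw count as a share of its library's total, scaled as parts per 1e+06) of at least 3 across 18 RNA-seq libraries. This rule kept 207 of the 298 genes with such a symbol, among 37991 genes counted, and left 91 below the limit. The genes were chosen by this mean, so their levels are given as a description. Just inside the limit stood Zfp688 with 3.01 CPM, Zfp251 with 3.05 CPM and Zfp39 with 3.09 CPM, and just outside it Zfp691 with 2.97 CPM, Zfp11 with 2.96 CPM and Zfp810 with 2.96 CPM. A limit of 2 CPM would have kept 230 genes and a limit of 5 CPM 165 genes, and the number past the test threshold in siRNA against PBS was 6 under each.

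The cells were plateable hepatocytes of male CD-1 mice, bought as cryopreserved cells. One group received an siRNA against transthyretin mRNA (called siRNA here). Others received 1 of a pair of REVERSIR oligonucleotides alone, with a scrambled sequence (scrambled REVERSIR) or with one directed at that siRNA (TTR REVERSIR). Both were also given together with the siRNA (siRNA + scrambled REVERSIR, siRNA + TTR REVERSIR), and the control was phosphate-buffered saline (PBS), with 3 libraries in each of the 6 groups. REVERSIR molecules are small oligonucleotides that pair with the guide strand held by the silencing complex and so undo the silencing. The labels give no dose, duration, age or number of mice. They do not say whether replicate libraries were separate cultures, so p-values measure the spread between libraries, which may be technical.

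Most mouse Zfp genes encode proteins with tandem C2H2 zinc fingers, small folds in which a pair of cysteines and a pair of histidines hold a zinc ion and a helix reads bases of DNA. Many also carry a KRAB box, which binds the corepressor TRIM28 and so recruits histone methylation to transposons and imprinted loci. These genes lie in clusters that arose by duplication. Consecutive fingers are joined by a short linker of nearly constant amino acids, beginning with threonine, glycine and glutamate, whose phosphorylation in mitosis releases such proteins from DNA.

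The coding DNA of that linker is what ties most of the family together, and it is shown for the 3 genes past the threshold in siRNA against PBS that contain it and for the 5 genes with the highest mean CPM among the others that do. Each line gives the gene, its position in NCBIM37 and its strand, then 21 bases read 5′ to 3′ on that strand within the coding exon. Capitals mark the 15 bases of the linker, and the lower-case bases are the codon of the last histidine of one finger and the first codon of the next.
Zfp930, chr8:71751839-71751859, plus strand: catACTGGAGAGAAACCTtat
Zfp942, chr17:22065981-22066001, minus strand: catACTGGAGAGAAACCTtac
Zfp825, chr13:74618397-74618417, minus strand: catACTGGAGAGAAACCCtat
Zfp568, chr7:30808559-30808579, plus strand: cacACCGGTGAGAAGCCCtat
Zfp445, chr9:122762007-122762027, minus strand: catACAGGGGAGAAACCGtac
Zfp281, chr1:138522700-138522720, plus strand: cacACGGGCGAAAGGCCTttc
Zfp266, chr9:20304043-20304063, minus strand: cacACTGGGGAAAAGCCTtac
Zfp110, chr7:13434903-13434923, plus strand: cacACAGGAGAGCGGCCAtat
The 8 stretches held 7 different linkers at the DNA level, and 8 of the 15 linker bases were the same in all of them. Each stretch is the first copy found in the protein, and some of these genes hold more. There were 9 copies in Zfp930, 7 in Zfp942 and 4 in Zfp825. Zfp930 and Zfp942, on different chromosomes, had the same 15 bases in the copy shown. The linker, with a lysine or an arginine at its variable place and a tyrosine or phenylalanine after it, was found in the longest annotated protein of 162 of the 207 Zfp genes (78.3%) and in 1.18% of 10413 other protein-coding genes tested.

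Finger motifs, counted as 2 cysteines and 2 histidines at the usual spacing, were present in 204 of the 207 proteins. The median protein held 10 and the largest number was 36, in Zfp142. The 3 genes with no match were Zfp36, whose protein (tristetraprolin) uses fingers of the CCCH type to bind AU-rich elements and hasten mRNA decay, Zfp330 and Zfp839. A KRAB A-box pattern was found in 96 Zfp proteins (46.4%), against 0.538% of the other protein-coding genes tested. KRAB-containing proteins had a median of 12 fingers and the rest a median of 8.

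**Figure D1:**
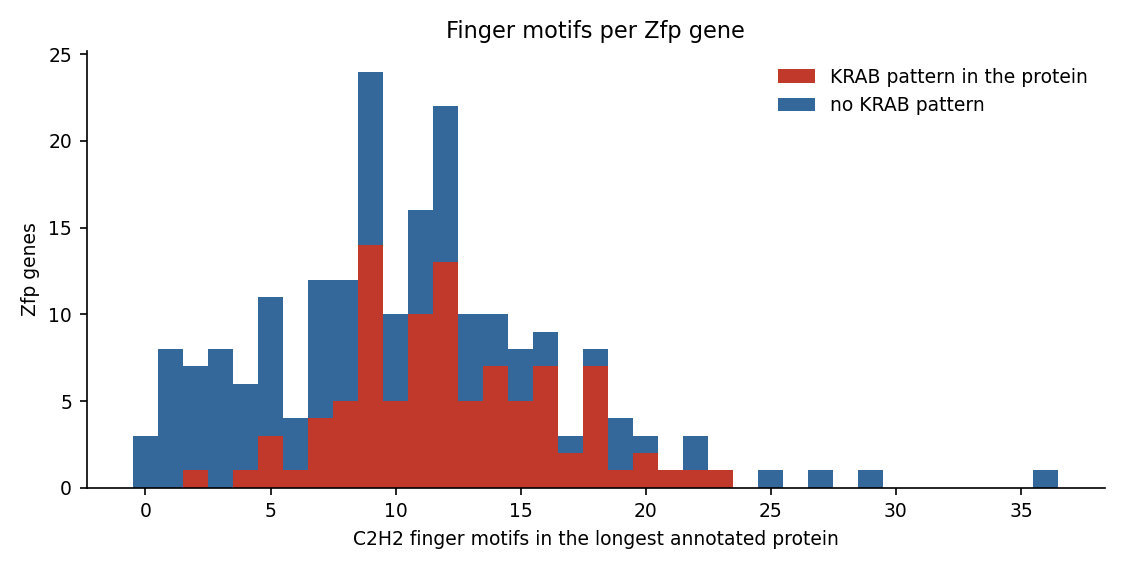
Number of C2H2 finger motifs in the longest annotated protein (horizontal axis) against the number of Zfp genes (vertical axis, stacked bars), split by whether the KRAB pattern was found. Most KRAB-containing proteins lie above 5 fingers, and the proteins with over 23 fingers lack the pattern.

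Chromosome 7 held 49 of the 207 genes (23.7%, against 7.25% of all genes tested) and chromosome 17 held 30 (14.5%, against 4.91%). Genes with gaps under 500000 bases formed 9 groups of 5 or more, with 71 genes in all. The largest, chr17:21145905-23736454, held 20 genes, of which 16 had the KRAB pattern, and the next, chr13:67170336-67830056, held 9, of which 6 had it. Recent duplicates can share reads, so 13 Zfp genes in which more than 10% of 50-base stretches also occur in another gene are uncertain, and 12 of these have the KRAB pattern. A further uncertainty is that 54 Zfp genes overlap another annotated gene and the strand of counting is not stated.

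Annotated 3′ UTRs of at least 50 bases were available for 188 Zfp genes, with a median A+T share of 58.9%, against 55.3% in other protein-coding genes tested. Zfp genes with the KRAB pattern had a median of 61.3% and those without it 55.5%. The highest shares were in Zfp51 (77.7%), Zfp800 (72.7%), Zfp948 (71.9%), Zfp638 (71.5%) and Zfp677 (69.0%), and the lowest in Zfp219 (37.4%), Zfp13 (40.4%), Zfp523 (42.3%), Zfp768 (42.4%) and Zfp777 (42.6%). The A- and T-rich 3′ UTR is therefore a tendency of the set and not a property of each gene.

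Library totals ran from 1755819 to 10145265 counts, and 11153 genes, all 207 Zfp genes among them, had enough counts to be tested. From here on, CPM is scaled by TMM, a correction for differences in RNA composition between libraries. Transthyretin mRNA (Ttr), the target of the siRNA, stood at 220, 254 and 253 CPM with siRNA and at 227, 225 and 226 CPM with siRNA + scrambled REVERSIR, against 1034, 1080 and 1220 CPM in PBS. It stood at 1135, 1064 and 1154 CPM with scrambled REVERSIR, at 1357, 1083 and 1355 CPM with TTR REVERSIR and at 1182, 1001 and 978 CPM with siRNA + TTR REVERSIR. Mitochondrial ribosomal RNA made up between 1.69% and 9.56% of counts in 16 libraries, but 24.3% in PBS replicate 1 (95% Wilson interval 24.308 to 24.373) and 24.1% in PBS replicate 2 (24.048 to 24.118), against 5.45% in PBS replicate 3, and the interval covers counting error only. Summed hepatocyte markers (11 of 12 listed, with Ttr among them) lay between 48350 and 52690 CPM with siRNA and between 53100 and 63410 CPM in PBS, and those of 8 stellate cell and fibroblast markers between 117 and 127 CPM with siRNA and between 142 and 146 CPM in PBS. Neither pair of ranges overlapped, and the part of these differences in the results was not tested. Ttr, the siRNA's target, differed by more CPM than the gap between the hepatocyte ranges, so without Ttr those ranges would overlap. Over all libraries the sums of 9 Kupffer cell and macrophage markers (280 to 385 CPM), the stellate cell and fibroblast markers (117 to 156 CPM), 7 endothelial markers (43.9 to 66.9 CPM), 5 cholangiocyte markers (9.84 to 16.4 CPM) and 4 lymphocyte markers (0 to 1.69 CPM) were far lower. In bulk RNA, fewer cells of a type and less RNA per cell cannot be told apart.

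Levels of different genes are compared per kb of exon. The median Zfp gene stood at 3.12 CPM per kb, against 6.90 CPM per kb over all genes tested, and 163 of the 207 lay below that overall median. Among genes picked for their rank, Zfp655 was highest with 35.5 CPM per kb, followed by Zfp106 with 25.8 and Zfp445 with 24.9 CPM per kb. Zfp106 encodes an RNA-binding protein, and Zfp445 a KRAB protein that keeps methylation at imprinted loci. Zfp334 was lowest with 0.449 CPM per kb. Zfp genes with the KRAB pattern had a median of 2.65 CPM per kb and those without it 3.93 CPM per kb. By fingers, the median was 5.32 CPM per kb for genes with 1 to 4 motifs, 3.84 with 5 to 9 and 2.47 with 10 or more.

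**Figure D2:**
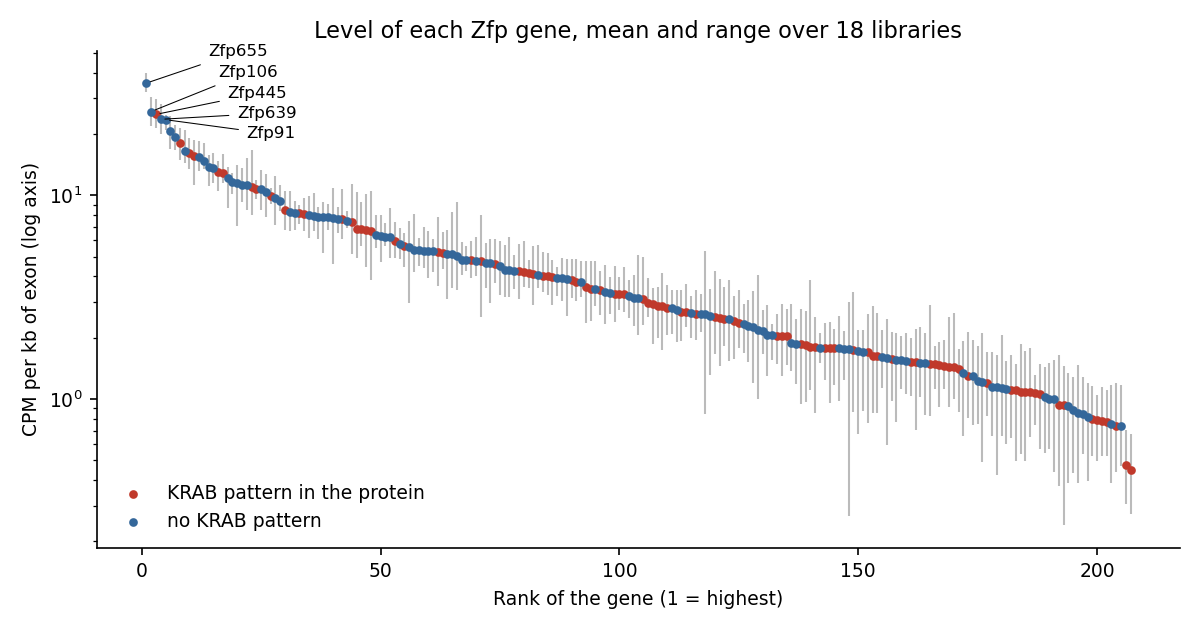
Mean level of each of the 207 Zfp genes in CPM per kb of exon (vertical log axis) in order of rank (horizontal axis), with a bar from the lowest to the highest of 18 libraries. The level declines gradually from Zfp655 at 35.5 CPM per kb to Zfp334 at 0.449 CPM per kb, with KRAB-containing genes throughout.

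The 8 genes with the most reads supplied 26.0% of all Zfp CPM. These were Zfp106 (mean of 284 CPM over 18 libraries), Zfp91 (236 CPM), which encodes a ubiquitin ligase of non-canonical NF-κB signalling, Zfp655 (160 CPM), Zfp638 (125 CPM), whose protein takes part in silencing of unintegrated retroviral DNA, Zfp207 (110 CPM), a partner of Bub3 at kinetochores, Zfp568 (92.4 CPM), a KRAB repressor of a placental Igf2 transcript, Zfp644 (91.3 CPM), a partner of the methyltransferases G9a and GLP, and Zfp292 (76.4 CPM). Group means were compared for the Zfp genes only, so whether other genes varied more or less is not known. The highest of the 6 group means was less than 1.5 times the lowest for 171 of the 207 genes, with a median ratio of 1.28. The ratio was above 2 for Zfp523 and Zfp653, picked out after their values were seen, which are low genes with at least 3 and 1 counts in a library. The means of Zfp523 were 5.56 ± 1.33 CPM with siRNA and 2.60 ± 0.789 CPM with scrambled REVERSIR (SD, n = 3 each). Those of Zfp653 were 2.15 ± 1.84 CPM with scrambled REVERSIR and 4.72 ± 1.42 CPM in PBS (SD, n = 3 each). No library listed a Zfp gene at 0.

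The summed level of the 207 genes was 4349, 4317 and 4388 CPM with siRNA, against 4843, 4690 and 4574 CPM in PBS. On this TMM scale the siRNA libraries lay below all of PBS and differed little among themselves. As a share of raw counts, the 207 genes made up 0.437%, 0.459% and 0.465% with siRNA. In PBS they made up 0.362%, 0.355% and 0.469%, so PBS replicates 1 and 2 then lay below siRNA. The order therefore depended on the scaling. The sum averaged 4568 ± 180 CPM with scrambled REVERSIR, 4484 ± 300 CPM with TTR REVERSIR, 4477 ± 37.2 CPM with siRNA + scrambled REVERSIR and 4527 ± 174 CPM with siRNA + TTR REVERSIR, against 4703 ± 135 CPM in PBS (SD, n = 3 each). Each of these 4 groups had a library or more below the PBS range. Since the sum is over genes chosen with earlier results known, it has no test.

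The siRNA against PBS comparison asks what the siRNA does beside silencing Ttr. In it, 6 of the 207 Zfp genes passed an adjusted p of 0.05 (2.90%), against a background of 2.62% of all genes tested, so the share was near that of any gene. Zfp930, Zfp825, Zfp511, Zfp277 and Zfp942 fell and Zfp598 rose, by edgeR's quasi-likelihood test with Benjamini-Hochberg adjustment over all genes. With library totals in place of TMM, 33 Zfp genes passed, 32 of them higher, against 34.5% of all genes, and the median of all genes then shifted by 0.33 on the log2 scale. Under that scaling Zfp598 and Zfp930 passed, with log2 0.85 and -0.51, and the others did not, with -0.49 for Zfp825, -0.37 for Zfp511, -0.04 for Zfp277 and -0.04 for Zfp942.

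Zfp930 (ENSMUSG00000059897, chr8:71750242-71752879), a KRAB protein gene with 12 fingers, had 5.07, 7.40 and 6.90 CPM with siRNA, against 13.9, 11.9 and 9.58 CPM in PBS. It had 8.71, 12.3 and 8.995 CPM with scrambled REVERSIR, 7.59, 5.91 and 7.001 CPM with TTR REVERSIR, 9.11, 8.996 and 8.85 CPM with siRNA + scrambled REVERSIR and 8.85, 8.29 and 10.2 CPM with siRNA + TTR REVERSIR. The siRNA and the TTR REVERSIR libraries lay below all of PBS, and so did those of siRNA + scrambled REVERSIR by a small margin, while scrambled REVERSIR and siRNA + TTR REVERSIR overlapped PBS. The log2 fold change was -0.87 ± 0.18 with siRNA (SE, adjusted p = 0.0171, edgeR). This is a 1.82-fold lower level for the group, and 3 of 3 libraries were lower than PBS. With TTR REVERSIR it was -0.75 ± 0.19, which missed the threshold (adjusted p = 0.0595).

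Zfp825 (ENSMUSG00000069208, chr13:74617965-74620391), another KRAB protein gene with 6 fingers, had 5.07, 5.69 and 4.21 CPM with siRNA, against 9.32, 8.79 and 8.07 CPM in PBS. It had 5.30, 6.15 and 6.75 CPM with scrambled REVERSIR, 5.55, 5.003 and 5.55 CPM with TTR REVERSIR, 4.61, 5.74 and 6.25 CPM with siRNA + scrambled REVERSIR and 5.63, 4.38 and 6.95 CPM with siRNA + TTR REVERSIR. Every library of the 5 treated groups lay below every PBS library. The fold change passed the threshold with siRNA alone (log2 -0.84 ± 0.20, SE, adjusted p = 0.0266, edgeR), while the other 4 groups gave log2 values between -0.69 and -0.55 with adjusted p between 0.0677 and 0.28.

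Zfp511 (ENSMUSG00000025470, chr7:147222290-147226504), with 3 fingers and no KRAB pattern, had 8.71, 7.40 and 5.38 CPM with siRNA, against 11.9, 10.4 and 11.8 CPM in PBS. It had 9.08, 8.54 and 5.06 CPM with scrambled REVERSIR, 7.30, 8.64 and 8.69 CPM with TTR REVERSIR, 8.21, 7.48 and 9.20 CPM with siRNA + scrambled REVERSIR and 9.06, 8.92 and 7.85 CPM with siRNA + TTR REVERSIR. Here too the PBS libraries stood above each of the 15 others. The log2 fold change was -0.72 ± 0.18 with siRNA (SE, adjusted p = 0.0391, edgeR), and between -0.53 and -0.40 with adjusted p from 0.15 to 0.26 in the other 4 groups against PBS.

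Zfp277 (ENSMUSG00000055917, chr12:41041633-41172377), which encodes a repressor of the Ink4a/Arf locus, had 23.7, 24.3 and 21.2 CPM with siRNA, against 32.7, 28.2 and 28.2 CPM in PBS. The 12 libraries of the other treated groups lay between 22.2 and 26.8 CPM, all below PBS. The log2 fold change with siRNA was -0.38 ± 0.10 (SE, adjusted p = 0.0486, edgeR). Zfp942 (ENSMUSG00000071267, chr17:22063927-22099431), a KRAB protein gene with 11 fingers in the large chromosome 17 cluster, had 28.2, 25.8 and 28.1 CPM with siRNA, against 37.5, 33.8 and 34.5 CPM in PBS. Zfp942 had 28.9, 38.7 and 29.9 CPM with TTR REVERSIR, where replicate 2 exceeded every PBS library. The siRNA and PBS groups did not overlap, and the log2 fold change was -0.37 ± 0.10 (SE, adjusted p = 0.0469, edgeR). Zfp942 shares 8.99% of its 50-base stretches with other genes, so part of its count is uncertain.

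Zfp598 (ENSMUSG00000041130, chr17:24806697-24818960), whose protein marks collided ribosomes with ubiquitin, had 39.5, 41.9 and 45.4 CPM with siRNA, against 23.2, 27.0 and 38.1 CPM in PBS. All siRNA libraries stood above PBS, but PBS replicate 3 was close to them and far above the other PBS libraries. The log2 fold change was 0.55 ± 0.14 (SE, adjusted p = 0.0347, edgeR). It was 0.54 ± 0.13 with siRNA + TTR REVERSIR and 0.50 ± 0.13 with siRNA + scrambled REVERSIR, neither past the threshold (adjusted p = 0.0568 and 0.0677).

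**Figure D3:**
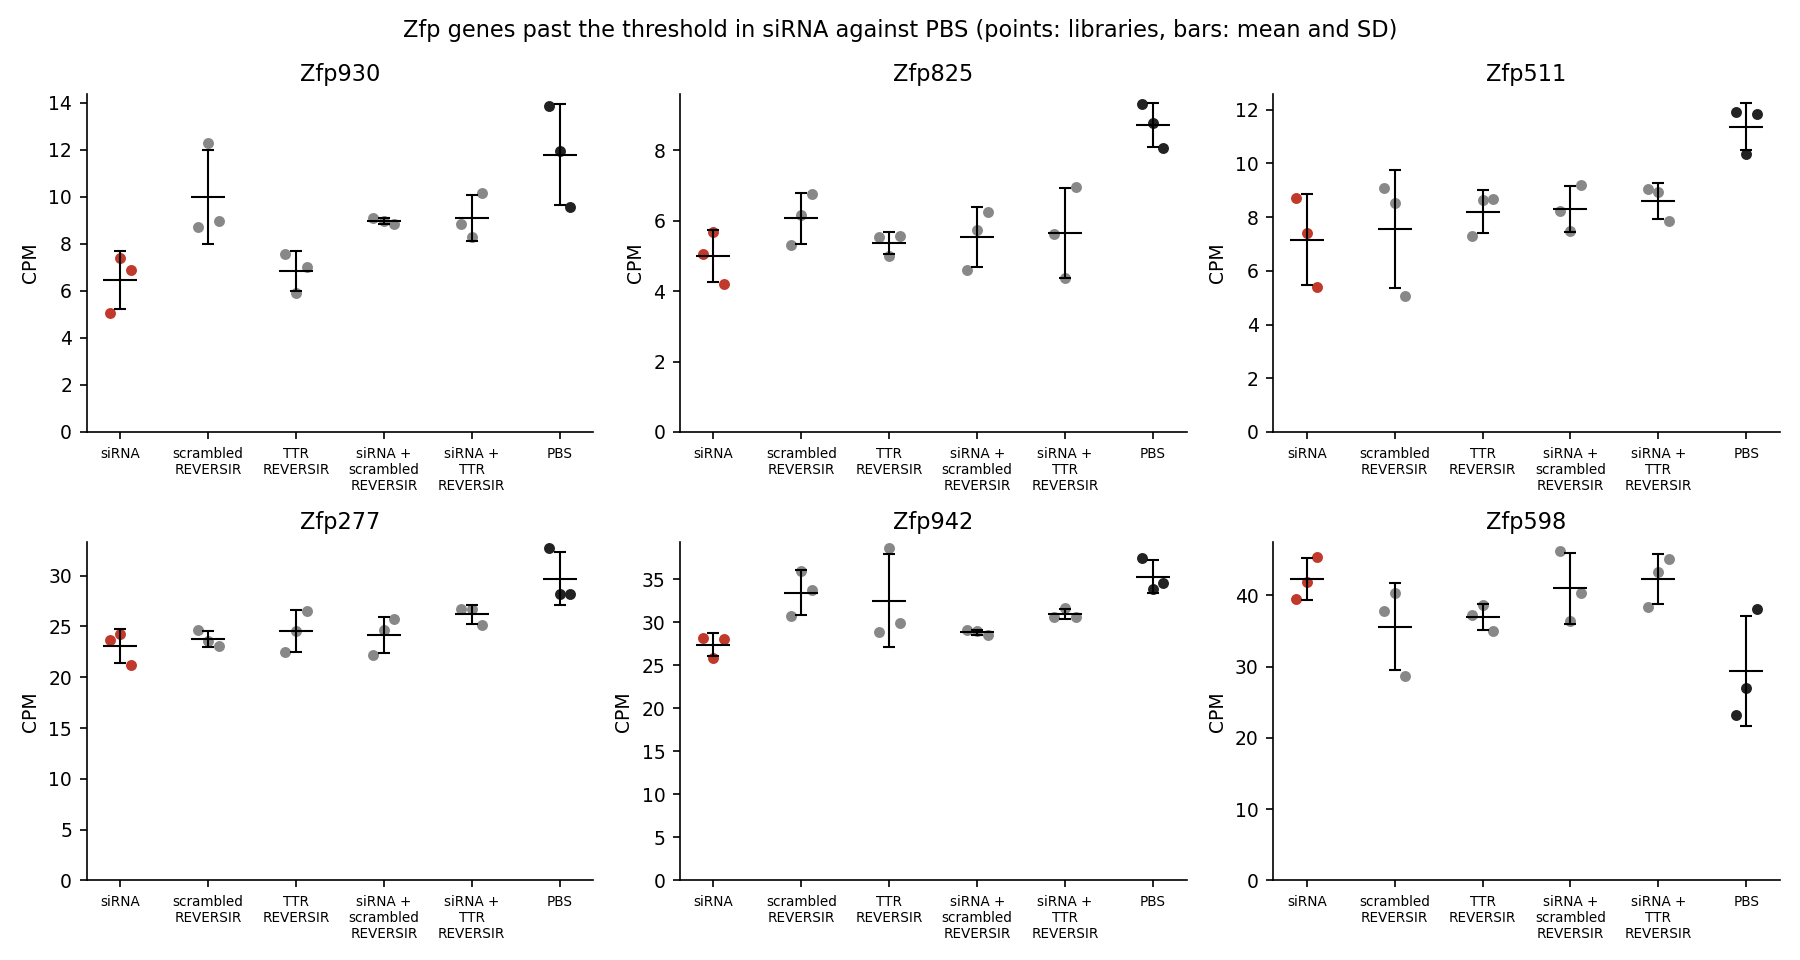
Level in CPM (vertical axis, from 0) of the 6 Zfp genes past the threshold in siRNA against PBS, in each library (points) with the group mean and SD (bars), by group along the horizontal axis with PBS at the right. The siRNA points lie below PBS in the first 5 panels and above it for Zfp598, where PBS spans 23.2 to 38.1 CPM.

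The calls depended on the PBS libraries, for these genes as for all genes. Without PBS replicate 1 no Zfp gene and 1 of 11236 genes passed, without PBS replicate 2 no Zfp gene and 2 of 11231 genes, and without PBS replicate 3 20 of 207 Zfp genes and 1365 of 11419 genes. With the mitochondrial ribosomal RNA share, which was 24.3% and 24.1% in PBS replicates 1 and 2, as a covariate, no Zfp gene and 1 of 11153 genes passed. PBS replicate 3 lay nearer to the siRNA libraries than the other PBS libraries for Zfp930, Zfp825 and Zfp598, and did not stand apart from both of them for Zfp511, Zfp277 and Zfp942. With both PBS replicates 1 and 2 left out, the log2 fold changes were -0.54 for Zfp930, -0.72 for Zfp825, -0.77 for Zfp511, -0.30 for Zfp277, -0.33 for Zfp942 and 0.17 for Zfp598, with adjusted p of at least 0.961, and 1 of 11525 genes passed. With siRNA replicate 1 left out, Zfp511 alone of the Zfp genes passed, and 62 of 11439 genes did. No Zfp gene passed with siRNA replicate 2 left out, where 12 of 11419 genes did, or with siRNA replicate 3 left out, where 44 of 11230 did.

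Across all 207 genes the median log2 fold change in siRNA against PBS was -0.07, against 0.00 over all genes tested, and 131 were negative (63.3%, against 49.5%). At an unadjusted p under 0.05 there were 44 Zfp genes (21.3%, against 20.1% of all genes), 5 higher and 39 lower. The directions of all genes at that limit were not counted, so this division has no background beside it. The median was -0.10 for genes with the KRAB pattern and -0.05 for those without it. The 94 genes with a 3′ UTR A+T share above 58.9% had a median of -0.16, and the 94 at or below it a median of -0.01. Over all genes tested the same division gave -0.08 for 3494 genes and 0.05 for 6948 genes, so the difference with A+T share was not limited to Zfp genes. It was not particular to siRNA either. In TTR REVERSIR against PBS the A+T medians of the Zfp genes were -0.13 and -0.02. The KRAB medians there were -0.13 with the pattern and -0.07 without it, and 65.7% of the 207 were negative. In scrambled REVERSIR against PBS the A+T order was the other way, with -0.02 at the higher shares and -0.06 at the lower.

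**Figure D4:**
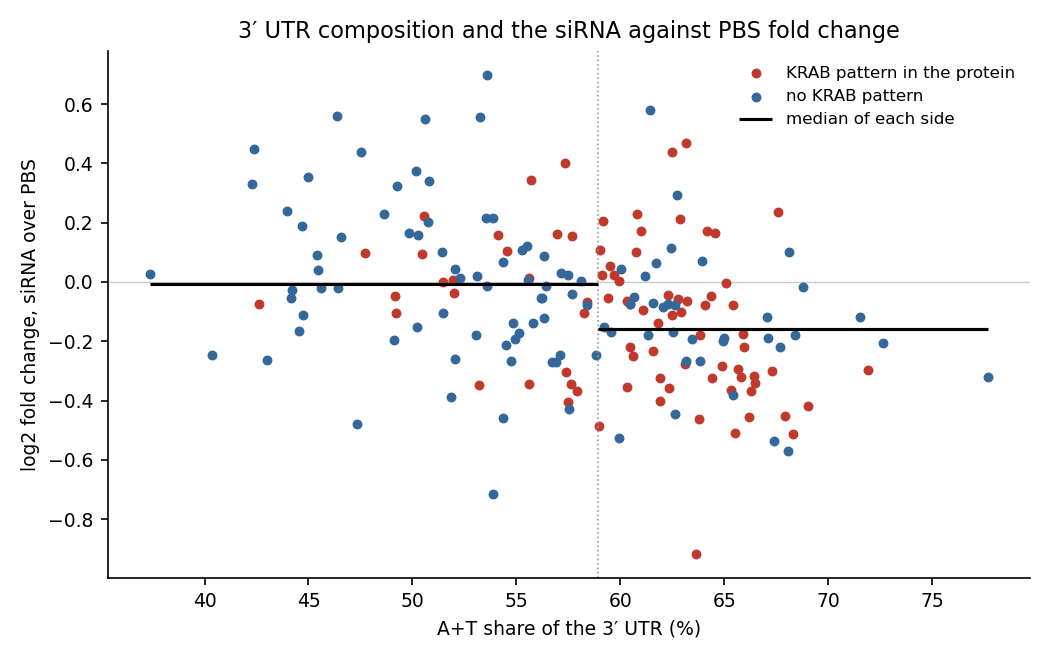
A+T share of the annotated 3′ UTR in percent (horizontal axis) against the log2 fold change of siRNA over PBS (vertical axis) for 188 Zfp genes, by KRAB pattern. The dotted line marks the median share of 58.9%, and the horizontal lines the median fold change on either side, -0.01 at the lower shares and -0.16 at the higher.

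The 2 largest of the 9 clusters had the lowest median log2 fold changes in siRNA against PBS. The 20 genes of the chromosome 17 cluster summed to 269, 256 and 283 CPM with siRNA, against 348, 328 and 312 CPM in PBS, and their median log2 fold change was -0.31. The 9 genes of the chromosome 13 cluster summed to 74.2, 78.4 and 74.5 CPM with siRNA, against 101, 101 and 90.01 CPM in PBS, with a median of -0.36. In both clusters all siRNA libraries lay below PBS, and the clusters were picked out after their values were seen. The same held for both clusters with siRNA + scrambled REVERSIR and with siRNA + TTR REVERSIR. Scrambled REVERSIR (288, 344 and 337 CPM) and TTR REVERSIR (263, 356 and 275 CPM) overlapped PBS in the chromosome 17 cluster. In the chromosome 13 cluster scrambled REVERSIR (79.9, 88.2 and 88.3 CPM) and TTR REVERSIR (70.9, 82.8 and 80.9 CPM) lay below PBS as well, so the lower sums were not limited to siRNA. The cluster of 5 genes at chr7:24866943-25061846, none with the KRAB pattern, had a median of 0.33, with log2 values of -0.19 for Zfp180, 0.02 for Zfp111, 0.33 for Zfp109, 0.58 for Zfp93 and 0.60 for Zfp235, none past the threshold.

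No Zfp gene passed the threshold in any of the other 4 comparisons with PBS by edgeR. These comparisons share the 3 PBS libraries, so each is given alone. For scrambled REVERSIR, the count was 0 of 207 against a background of 0.421% of genes, with 22 Zfp genes at an unadjusted p under 0.05 (10.6%, against 14.7% of all genes), 1 by DESeq2 (Zfp740, against 1.67% of all genes) and a median log2 fold change of -0.05. For TTR REVERSIR it was 0 against 0.699%, with 28 at an unadjusted p under 0.05 (13.5%, against 16.4%), 1 by DESeq2 (Zfp148, against 1.45%) and a median of -0.09. For siRNA + scrambled REVERSIR it was 0 against 0.61%, with 29 at an unadjusted p under 0.05 (14.01%, against 17.7%), 1 by DESeq2 (Zfp664, against 1.91%) and a median of -0.08. For siRNA + TTR REVERSIR it was 0 against 0.789%, with 30 at an unadjusted p under 0.05 (14.5%, against 17.7%), 2 by DESeq2 (Zfp110 and Zfp664, against 2.06%) and a median of -0.04. With 1 library left out, these medians ranged from -0.09 to -0.01 for scrambled REVERSIR, from -0.13 to -0.05 for TTR REVERSIR, from -0.11 to -0.04 for siRNA + scrambled REVERSIR and from -0.07 to -0.01 for siRNA + TTR REVERSIR. Without PBS replicates 1 and 2 the median was -0.04 with siRNA, 0.00 with scrambled REVERSIR and -0.04 with TTR REVERSIR. It was then -0.02 with siRNA + scrambled REVERSIR and -0.01 with siRNA + TTR REVERSIR. DESeq2 gave an adjusted p to 66 of the 207 Zfp genes for scrambled REVERSIR and to 17 for TTR REVERSIR. It gave one to 19 for siRNA + scrambled REVERSIR and to 19 for siRNA + TTR REVERSIR. Its counts of Zfp genes rest on these few, while the shares beside them are of all genes tested.

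Some of the genes near the threshold there are given, chosen after their values were seen. Zfp740 had 40.9, 44.8 and 37.7 CPM with scrambled REVERSIR, against 29.95, 25.2 and 35.5 CPM in PBS (log2 0.46 ± 0.12, SE, adjusted p = 0.0778, edgeR). The groups did not overlap, and PBS replicate 3 was again the highest of PBS. Zfp740 was not particular to scrambled REVERSIR. Its log2 value was 0.39 with siRNA + scrambled REVERSIR (adjusted p = 0.0614, edgeR) and 0.37 with siRNA + TTR REVERSIR (adjusted p = 0.0661, edgeR). With TTR REVERSIR it was 0.37 (adjusted p = 0.0959, edgeR), and with siRNA 0.325. Zfp110, whose protein is a partner of the neurotrophin receptor p75, gave log2 0.31 ± 0.09 in siRNA + TTR REVERSIR against PBS (SE, adjusted p = 0.0746, edgeR). Zfp664 gave log2 -0.35 ± 0.10 in the same comparison (SE, adjusted p = 0.068, edgeR).

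Adding the TTR REVERSIR to the siRNA asks whether the siRNA's changes are undone. In siRNA + TTR REVERSIR against siRNA, 0 of 207 Zfp genes passed by edgeR, against a background of 0.00897%. At an unadjusted p under 0.05 there were 9 (4.35%, against 5.98% of all genes). All 9 were higher, and the directions of all genes at that limit were not counted. DESeq2 called 0, but only 2 of the 207 had an adjusted p there, so its count decides little. The median log2 fold change of the 207 genes was 0.05, and 36.7% were negative, against 51.0% of all genes. Zfp930 stood at 9.11 ± 0.961 CPM with siRNA + TTR REVERSIR and at 6.46 ± 1.23 CPM with siRNA (SD, n = 3 each), with log2 0.48 ± 0.17 (SE, adjusted p = 0.689, edgeR). Zfp292 gave log2 0.27 ± 0.08 (SE, adjusted p = 0.643, edgeR) and Zfp638 0.20 ± 0.06 (SE, adjusted p = 0.643, edgeR). For the other genes that passed in siRNA against PBS, the difference was 0.22 for Zfp825, 0.32 for Zfp511, 0.19 for Zfp277, 0.17 for Zfp942 and -0.01 for Zfp598 on the log2 scale, with adjusted p of at least 0.812. The genes that passed, Zfp930 among them, were picked by their change in the same siRNA libraries. Part of a return towards PBS would follow from that choice, so these values do not show whether the changes were undone.

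With the siRNA present in both, siRNA + TTR REVERSIR against siRNA + scrambled REVERSIR compares the REVERSIR sequences. No Zfp gene of 207 passed by edgeR, against a background of 0.00897%, 8 had an unadjusted p under 0.05 (3.87%, against 2.17% of all genes) and DESeq2 called 0. The median was 0.02, and the middle 80% of Zfp genes lay between -0.17 and 0.19 on the log2 scale, the narrowest range of the 10 comparisons. The 95% interval of the difference was -0.30 to 0.44 for Zfp825 and -0.21 to 0.28 for Zfp598, so changes of that size in either direction are not distinguished.

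Of the comparisons without PBS, siRNA + scrambled REVERSIR against scrambled REVERSIR repeats the test of the siRNA on other libraries. It is less precise, since the scrambled REVERSIR libraries held only 2557229, 2896366 and 1755819 counts. The median SE of the Zfp genes was 0.20, against 0.18 in siRNA against PBS. Here 0 of 207 Zfp genes passed by edgeR, against a background of 0.0179%, 16 had an unadjusted p under 0.05 (7.73%, against 6.22% of all genes) and DESeq2 called 0. The median was -0.03. Of the genes that passed against PBS, Zfp930 gave log2 -0.18 ± 0.20, Zfp825 -0.14 ± 0.24, Zfp942 -0.21 ± 0.11, Zfp277 0.01 ± 0.12, Zfp511 0.06 ± 0.22 and Zfp598 0.18 ± 0.15 (SE, adjusted p of at least 0.816, edgeR). In TTR REVERSIR against scrambled REVERSIR, 0 of 207 passed by edgeR, against a background of 0.0179%, 14 had an unadjusted p under 0.05 (6.76%, against 7.33% of all genes), DESeq2 called 0 and the median was -0.05. The smallest p there was that of Zfp445, with 63.9, 73.7 and 68.3 CPM under TTR REVERSIR, against 84.4, 80.0 and 87.7 CPM under scrambled REVERSIR. The groups did not overlap, and the log2 fold change was -0.30 ± 0.09 (SE, adjusted p = 0.438, edgeR).

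The effect of the siRNA with the scrambled REVERSIR minus its effect without it tests whether the effect of the siRNA differs with the background it was given in. None of 207 Zfp genes passed by edgeR, against a background of 0.0179%, and 17 had an unadjusted p under 0.05 (8.21%, against 11.4% of all genes). DESeq2 called 0, with an adjusted p for only 60 of the 207. The median difference of the 207 genes was 0.09, against 0.00 over all genes. For Zfp930 the difference was 0.69 ± 0.26 (SE, adjusted p = 0.329, edgeR), with a 95% interval of 0.15 to 1.23. For Zfp511 it was 0.78 ± 0.28 (adjusted p = 0.314, edgeR), for Zfp825 0.70 ± 0.30 (adjusted p = 0.383, edgeR) and for Zfp598 -0.37 ± 0.20 (adjusted p = 0.49, edgeR), on the log2 scale. These genes were picked for their change in siRNA against PBS, and the same siRNA and PBS libraries enter this difference. A difference of opposite sign to that change therefore follows in part from the choice, and the interval does not allow for it. So the siRNA's effect on these genes was not shown to differ with the scrambled REVERSIR present.

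**Figure D5:**
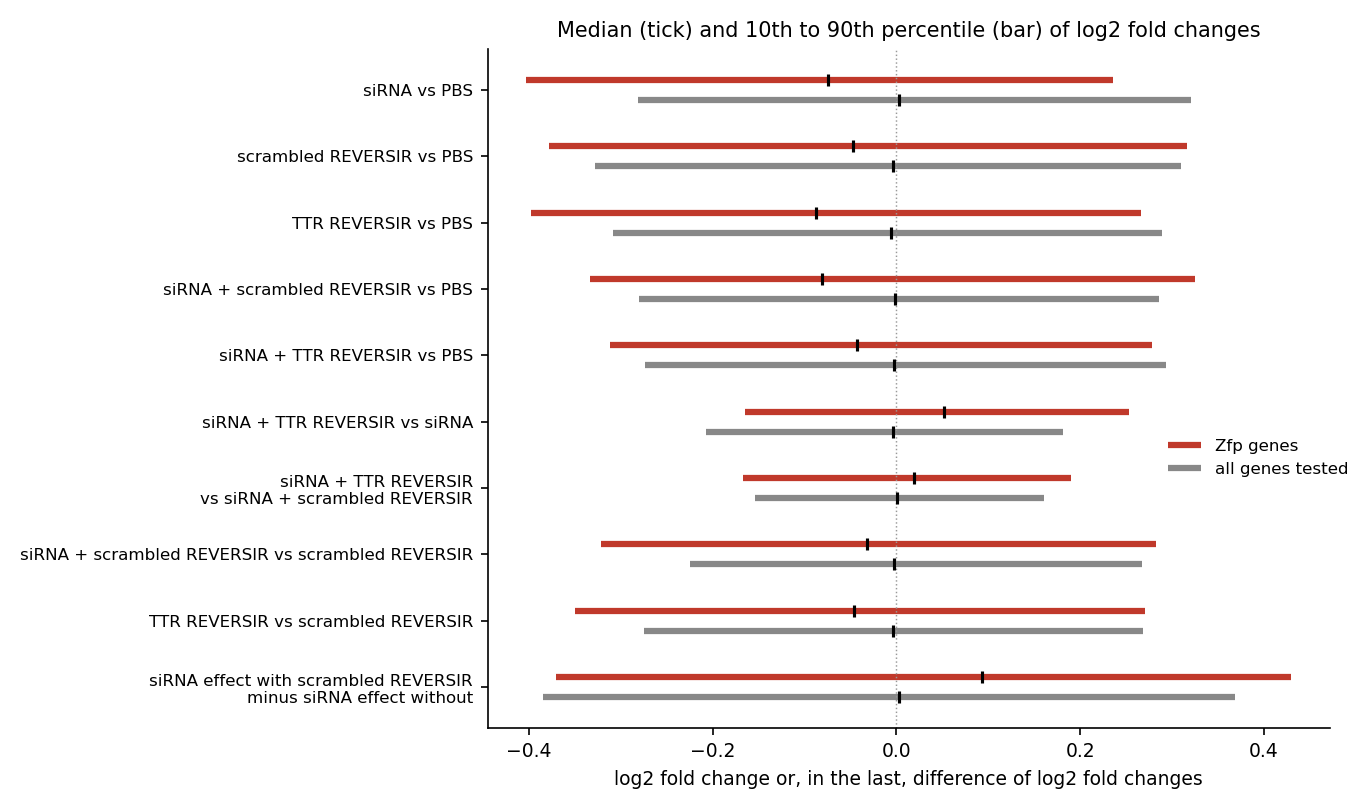
Median (tick) and the 10th to 90th percentile (bar) of log2 fold changes in each of the 10 comparisons (down the page, first group over second; the last is a difference of fold changes), for the 207 Zfp genes and for all 11153 genes tested. The Zfp medians lie between -0.09 and -0.04 in the 5 comparisons with PBS, while those of all genes lie near 0.

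Zfp genes were also listed by role, in lists that hold few of the 207 genes. No listed gene passed the threshold in any comparison by edgeR. Between 0.00897% and 2.62% of all genes passed in these comparisons, so lists this short could hold none at that share. The lists leave out all 6 genes that passed in siRNA against PBS, among them the ubiquitin ligase gene Zfp598 and the Ink4a/Arf repressor gene Zfp277. Of 6 genes listed for silencing of transposons and imprints, 5 met the 3 CPM limit and Zfp57 did not. Their median log2 fold change in siRNA against PBS was -0.16. Zfp809, which silences retroviruses in embryonic cells, had 20.9, 23.9 and 23.2 CPM with siRNA, against 23.4, 23.2 and 23.95 CPM in PBS, and the ranges overlapped. Zfp568 overlapped as well, with 95.2, 89.6 and 94.98 CPM with siRNA, against 86.3, 87.0 and 105 CPM in PBS.

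Among the 3 genes of mRNA binding and decay, Zfp36 had 22.5, 20.9 and 21.6 CPM with siRNA, against 16.5, 18.2 and 27.2 CPM in PBS (log2 0.09 ± 0.15, SE, adjusted p = 0.798, edgeR). Zfp106 had 291, 264 and 277 CPM with siRNA, against 333, 315 and 288 CPM in PBS, and the groups overlapped (log2 -0.17 ± 0.08, SE, adjusted p = 0.2, edgeR). Zfp346, which encodes a protein that binds double-stranded RNA, lay between 3.64 and 9.06 CPM over all libraries. The 3 genes of splicing and the nuclear matrix (Zfp326, Zfp638, Zfp207) had a median log2 fold change of -0.12 in siRNA against PBS, the 2 of ribosome biogenesis (Zfp622, Zfp593) 0.14 and the listed SUMO and ubiquitin ligases (Zfp451, Zfp91) -0.12, beside 0.55 for the unlisted Zfp598.

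Of 19 genes listed as regulators of transcription, 16 met the limit and Zfp462, Zfp703 and Zfp131 did not. Their median was -0.08 in siRNA against PBS. Zfp410, whose protein activates transcription of the chromatin remodeller gene Chd4, had 22.7, 20.5 and 28.1 CPM with scrambled REVERSIR, against 29.8, 31.8 and 28.7 CPM in PBS. Scrambled REVERSIR lay below PBS in 3 of 3 libraries, with the highest close to the lowest of PBS, and the fold change missed the threshold (log2 -0.37 ± 0.13, SE, adjusted p = 0.163, edgeR).

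The proteins with which KRAB zinc fingers work were tested as a list of 33, among them the corepressor gene Trim28 and the methyltransferase gene Setdb1. Against 2.62% of all genes, 1 of the 33 fell in siRNA against PBS and none rose. This was Mbd2, which encodes a reader of methylated DNA and stood at 63.3 ± 3.88 CPM with siRNA and 88.0 ± 15.8 CPM in PBS (SD, n = 3 each; log2 -0.48 ± 0.10, SE, adjusted p = 0.0163, edgeR). In siRNA + TTR REVERSIR against PBS, where 0.789% of all genes passed, Mbd2 also fell, to 67.3 ± 2.19 CPM (SD, n = 3; log2 -0.39 ± 0.09, SE, adjusted p = 0.0494, edgeR). Without PBS replicate 1, 0 of 11236 genes passed in that comparison, so this call was lost. In the other 8 comparisons none of the 33 passed, against between 0.00897% and 0.699% of all genes. Trim28 itself stood at 136, 129 and 131 CPM with siRNA, against 140, 140 and 135 CPM in PBS, and these ranges overlapped.

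None of 31 genes of AU-rich element decay, the pathway of the Zfp36 protein, passed in any comparison. The share of all genes was between 0.00897% and 2.62%, so a list of 31 genes could hold none at that share. The list's median in siRNA against PBS was -0.04. Among 93 other genes with zinc finger symbols (Zbtb, Zscan, Zkscan, Zfyve, Zc3h and Zfp with a letter), 3 fell and none rose in siRNA against PBS, against 2.62% of all genes. These were Zbtb1 (log2 -0.50 ± 0.12, SE, adjusted p = 0.0278, edgeR), Zbtb18 (log2 -0.32 ± 0.07, adjusted p = 0.0263, edgeR) and Zc3h14 (log2 -0.27 ± 0.07, adjusted p = 0.0407, edgeR). Zbtb1, as 1 of the 93, also fell in TTR REVERSIR against PBS, where 0.699% of all genes passed (log2 -0.54 ± 0.12, SE, adjusted p = 0.0427, edgeR). Without PBS replicate 2, 0 of 11231 genes passed in that comparison, so this call was lost. The median of these 93 genes in siRNA against PBS was -0.09, beside -0.07 for the 207 Zfp genes.

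The authors' deposited tables compare each treatment with PBS by DESeq2. In the authors' deposited table for siRNA, 48 of the 207 Zfp genes have an adjusted p, and 3 of them are under 0.05, against 8.37% of all genes with one in that table: Zfp598 with log2 0.37 (adjusted p = 0.0112), Zfp942 with log2 -0.28 (adjusted p = 0.0354) and Zfp91 with log2 -0.16 (adjusted p = 0.0386). Zfp598 and Zfp942 also passed here. In the authors' deposited table for siRNA + TTR REVERSIR, Zfp598, Zfp110 and Zfp664 of 48 are under 0.05 (3.68% of all genes with an adjusted p). In the authors' deposited table for scrambled REVERSIR these are Zfp110 and Zfp740 of 48 (3.88%), in that for siRNA + scrambled REVERSIR Zfp664 of 19 (6.89%), and in that for TTR REVERSIR none of 69 (2.65%). The calls in these 4 tables did not pass here.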

How the data were processed

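RNA-seq libraries of mouse hepatocytes, 18 in 6 groups of 3, were grouped by their titles. The raw counts per gene deposited by the authors were whole numbers, 1 table per library. Per the submitters' processing notes, STAR, DESeq2 and the build NCBIM37 were used, with no versions. No source used here names the counter, the strand or any filter. The authors' deposited tables give a signal (the mean normalized count), log2 changes and their errors, a score (the test statistic), and raw and adjusted p-values, per the file headers.

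Genes were kept by filterByExpr, and all libraries were fitted together with edgeR 4.0.16 in R 4.3.3 (TMM scaling, quasi-likelihood test, group only, 12 residual degrees of freedom, Benjamini-Hochberg over 11153 genes, threshold 0.05). The script was tested on simulated data. Standard errors come from the log2 fold change and the F statistic. CPM uses TMM-scaled totals. Exon lengths, translated proteins, 3′ UTRs and gene positions were read from the NCBIM37 annotation, which held all 207 genes.

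The 207 genes, the role and partner lists and the tests were chosen with earlier results of these data known, so no list has a test of its own. Named were Ttr, the 8 genes with the highest mean CPM, genes past 0.05, role list members, genes beside the 3 CPM limit, the 5 highest and 5 lowest 3′ UTR A+T shares, and up to 3 partner genes per comparison. Alternatives were DESeq2 size factors, library totals, no filter, DESeq2 1.42.0, the compared groups alone, each library left out, PBS replicates 1 and 2 left out, a covariate for mitochondrial ribosomal RNA (log2 of its share), a replicate block, and limits of 2 and 5 CPM. No replicates were duplicates.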

Additional observations from a re-analysis of the deposited data

How the results depend on the processing

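In siRNA against PBS, where 6 Zfp genes passed, the number past the threshold was 33 with library totals alone (34.5% of all genes), 11 with no filter on low counts (3.37%), 2 with DESeq2 (Zfp598 and Zfp942; 424 of 11153 genes), and 0 with the mitochondrial ribosomal RNA share as a covariate, without PBS replicates 1 and 2 together, or with the compared groups only, each with 1 gene of all tested. DESeq2 size factors in edgeR gave 6. Leaving out 1 library at a time gave 0 to 20. In the other comparisons with PBS, where 0 passed, scrambled REVERSIR had 17 with library totals alone (14.2% of all genes), 4 with no filter (2.11%), 1 with DESeq2 (1.67%) and 0 to 5 with 1 library left out. TTR REVERSIR had 23 (25.8%), 4 (2.48%), 1 (1.45%) and 0 to 12 under these settings. The siRNA + scrambled REVERSIR group had 35 (31.9%), 6 (2.81%), 1 (1.91%) and 0 to 14, and the siRNA + TTR REVERSIR group 50 (36.7%), 9 (2.92%), 2 (2.06%) and 0 to 12. Among runs that left out 1 library, the highest counts came without PBS replicate 3, where between 749 and 1365 of 11419 genes passed. The difference between the siRNA effects gave 0 to 2. PBS enters that difference as well. The 4 comparisons without PBS stayed at 0 under every alternative run, and library totals shift all genes at once.

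DESeq2 gave no adjusted p for 4 of the 6 genes that passed with edgeR, nor for 159 of the 207 in siRNA against PBS. In the other comparisons with PBS it gave none for between 141 and 190 of the 207. Of 25 to 26 alternatives with an adjusted p, Zfp598 passed in 18, Zfp930 and Zfp511 in 17 each, Zfp825 in 16, Zfp942 in 7 and Zfp277 in 5. The sign of all 6 held in each, but library totals alone left log2 -0.04 for Zfp277 and for Zfp942. Zfp217, which did not pass in the reported fit, turned to log2 0.31 with library totals alone in siRNA against PBS (adjusted p = 0.0441). Samples with the same replicate number did not deviate together (no comparison had every pair's correlation over 0.1), and a replicate block gave 4 Zfp genes past the threshold in siRNA against PBS and 0 in the other 9 comparisons.

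Depth limits the lower genes. The median Zfp gene had 20 counts in the shallowest library and 111 in the deepest.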
